A study of Mus musculus with 4 samples.

Results

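The cytosolic ribosomal proteins are the protein components of the large and the small subunit of the ribosome that translates nuclear messages. Their genes were taken from the count table by symbol: Rpl or Rps followed by digits and at most 1 of the letters a, x or l, together with Rplp0, Rplp1, Rplp2 and Rpsa. Of 53465 gene rows 83 had such a symbol, and the 79 with at least 40 reads summed over the 4 libraries were the members, 48 of the large and 31 of the small subunit. The 4 rows under that minimum were the copies Rpl3l, with 1 read in all, and Rpl39l, Rpl10l and Rps4l, with 0. The cells were B16, a mouse melanoma line, in every library: 2 control libraries and 2 libraries of cells given EM-plasma, which the labels describe as plasma treated with exosome-mimetic nanovesicles, with 4 h in the titles. What kind of plasma this was, and what the controls received and when they were collected, is not given in the sources used here. Nothing says that the libraries came from separate cultures, so each p-value reflects the scatter among these libraries alone, and that scatter may be technical.

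Total counts ran from 46295133 to 49367932 reads per library. All 7 melanocyte markers checked were present, with summed levels of 10988 to 11065 CPM, a gene's reads per library total after adjustment by edgeR's TMM factors, in controls and 11128 to 11329 CPM with EM-plasma. Summed markers of leukocytes, epithelium, endothelium, fibroblasts and red cells each lay below 2.2 CPM in every library, and 8 of those 16 markers had 0 reads throughout.

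A ribosome needs 1 copy of nearly every one of these proteins, so their genes are known for being expressed together and at high levels in growing cells. Their mRNAs typically begin with a C followed by an uninterrupted stretch of pyrimidines, the terminal oligopyrimidine tract, through which mTORC1 and the RNA-binding protein LARP1 control their translation. Newly made ribosomal proteins are imported into the nucleolus for assembly, and free copies are degraded or, as with Rpl5 and Rpl11, bind the p53 inhibitor MDM2.

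The start regions of the members show what they share in sequence. RefSeq promoter windows on GRCm38.p6, from 250 bases before to 50 bases after each annotated start, were found for 58 of the 79 members (69 windows). A run of at least 8 bases that are each C or T, on the gene's strand and within the last 100 bases of the window, was present in 56 of the 69 windows (81.2%), against 35.7% of the 32851 windows of all genes. The stretches below hold 30 bases around the longest such run, in capitals, 5′ to 3′. Only members with a run could be shown. They were taken, large subunit first, from the low end of the range of response and, in the large subunit, also from the high end. The paralogs Rps27 and Rps27l were added. Rps14, which had the largest fold change, was not among the matched members.
Rpl15: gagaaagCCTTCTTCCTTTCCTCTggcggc
Rpl5: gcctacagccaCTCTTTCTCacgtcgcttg
Rpl34: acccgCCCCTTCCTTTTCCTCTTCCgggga
Rpl37: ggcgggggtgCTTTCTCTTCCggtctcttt
Rps25: ccaccgggCTTCCTTTTTTTCCgacatctt
Rps24: gagcggTCCTCTTTTCCTCCTCTCCagctc
Rps27: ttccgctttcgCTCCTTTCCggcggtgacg
Rps27l: ccccgcctccaCTCCTCTCCactcctcccc
In the order printed they lie at chr14:18270968-18270997 (-), chr5:107900497-107900526 (+), chr3:130730330-130730359 (-), chr15:5116631-5116660 (+), chr9:44407684-44407713 (+), chr14:24490710-24490739 (+), chr3:90213632-90213661 (-) and chr9:66946053-66946082 (+). Rpl15, Rpl5, Rps25 and Rps24 were among the smallest fold changes, and Rpl34 and Rpl37 among the largest of the large subunit. All were picked from members with a run, so its presence in them says nothing about the response. Over all matched members, the 50 with a run had a median log2 fold change of 0.065 and the 8 without one a median of 0.064. The starts are those of RefSeq and were not mapped in these cells, so a run marks pyrimidines near an annotated start, not a mapped tract. Relative to that start the printed runs begin at bases -4, -20, -17, 29, -22, -37, -2 and -22, in the order shown. Those of Rpl5, Rps25, Rps24 and Rps27l end before the start. For Rps24 this holds for the start used here. Relative to another annotated start of Rps24 the same run begins at base 39.

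Other letters were searched on both strands of the whole 300-base window. CCGGAAG, the core bound by ETS-family factors, was present in 25 of 69 member windows (36.2%) and in 8.86% of all windows. GCCATNTT, the core bound by YY1, was present in 15 (21.7%) against 6.05%, and CTTTCC, which can lie inside a pyrimidine run, in 34 (49.3%) against 26.6%. TATAAA was present in 7 (10.1%) against 13.6%. These are matches of letters, and binding was not measured.

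The level of each member was compared per kilobase of its annotated transcript, as the mean of the 4 libraries. Of the 45 large subunit members with a mean of at least 1000 reads, Rpl32 had the highest level at 930.0 CPM per kb. Next came the stalk protein Rplp1 at 855 and the stalk base Rplp0 at 737 CPM per kb, and the median was 396 CPM per kb. All 31 small subunit members passed the same minimum, with Rps12, a protein of the subunit's head, highest at 777 and a median of 441 CPM per kb.

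A few rows stood far below. Rpl24, whose protein sits at the interface of the subunits, had 56, 53, 54 and 61 reads in the libraries control 1, control 2, EM-plasma 1 and EM-plasma 2. The copies named Rpl32l and Rpl6l, which the annotation classes as processed pseudogenes, had a mean of 29.8 and 75.3 reads per library. The other 77 members are annotated as protein coding. Rpl13a, a large subunit protein also known from interferon-dependent translational control, was at 42.2 CPM per kb. Many ribosomal protein genes have near-identical processed copies elsewhere in the genome, and how reads matching several places were counted is not given, so these low levels are uncertain. The lowest of the small subunit, Rps20 at 66.3 CPM per kb, is divided by the longest annotated transcript of any member, 3706 bases, while its mean level without that division was 246 CPM.

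**Figure D1:**
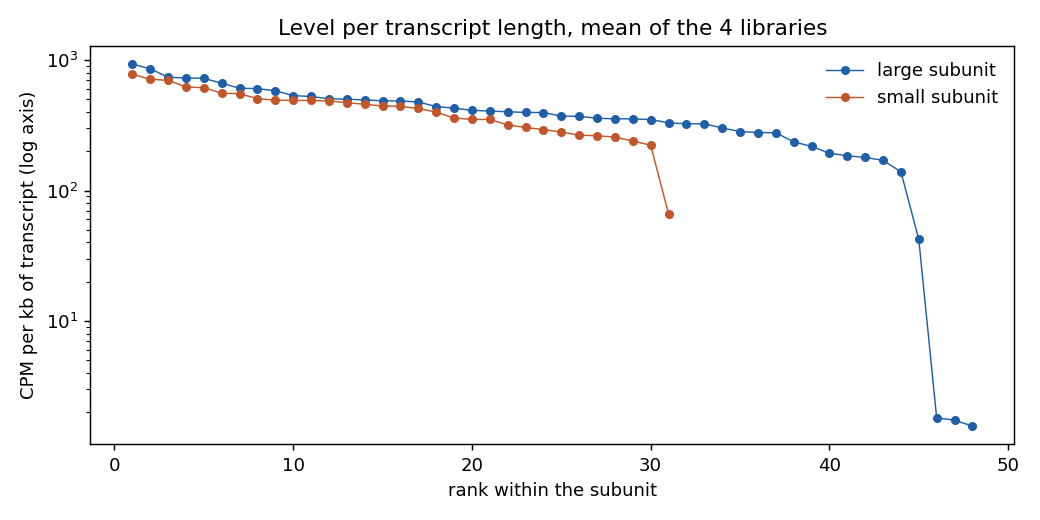
Level of each member per kilobase of annotated transcript (log axis, CPM per kb, mean of the 4 libraries), ranked within the large (blue) and the small (orange) subunit. Rpl13a, Rpl6l, Rpl24 and Rpl32l form the low end of the large subunit while Rps20 is the low point of the small one.

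With EM-plasma most ribosomal protein transcripts lay slightly above controls. The members together took 2.47% and 2.45% of all counts in the controls and 2.56% and 2.64% with EM-plasma, replicate 1 first. Their summed level was 24769 and 24650.4 CPM in controls and 25457 and 26394 CPM with EM-plasma, a mean higher by 4.92%. As a share of all counts, without the TMM adjustment, the mean was higher by 5.70%. Both treated libraries lay above both controls, and EM-plasma 2 stood above EM-plasma 1 by 3.68%, while the controls differed by 0.481%. These are levels relative to the other transcripts of a library, and in bulk RNA more cells expressing a gene and more RNA per cell cannot be told apart.

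The subunits did the same. The large subunit summed to 14895 and 14865 CPM in controls and 15297 and 15886 CPM with EM-plasma, a mean higher by 4.78%. The small subunit summed to 9874 and 9786 CPM in controls and 10159 and 10508 CPM with EM-plasma, a mean higher by 5.12%. The ratio of large to small subunit reads was 1.51 and 1.52 in controls and 1.51 and 1.51 with EM-plasma. EM-plasma 2 lay between the controls and EM-plasma 1 just below both. With 2 libraries a group the smallest p of an exact two-sided permutation test is 0.333, and none was run on the sums.

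**Figure D2:**
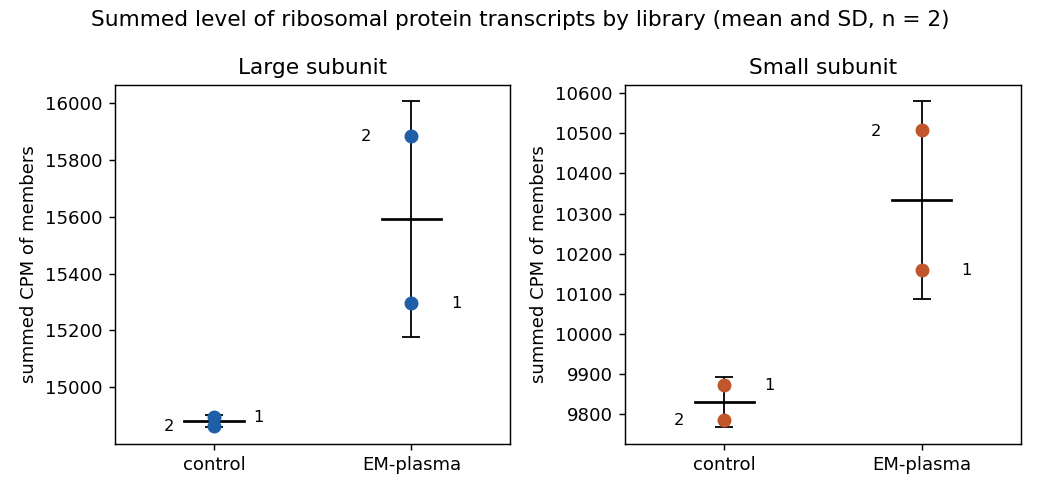
Summed CPM of the large subunit (left) and small subunit (right) members in each library, labelled by replicate number, with the mean (horizontal line) and SD (bars, n = 2 per group). In both panels the 2 EM-plasma libraries lie above the 2 controls, with EM-plasma 2 the highest, and neither vertical axis starts at 0.

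Gene by gene the shift was small. Each log2 fold change compares EM-plasma with control and came from edgeR's quasi-likelihood test over 13664 genes, and a gene was called when its Benjamini-Hochberg adjusted p was below 0.05. Of the 79 members 1 was called higher (1.27%, against 3.34% of all genes tested) and 0 lower (against 2.88%). At an unadjusted p below 0.05 there were 19 members higher (24.1%, against 9.7% of all genes) and 0 lower (against 9.84%). DESeq2's Wald test likewise called 1 member higher (against 2.03% of all genes) and 0 lower (against 2.05%). The fitted change was above 0 in 78 members (98.7%), against 49.1% of all genes, and the exception was Rpl32l, a thinly covered processed pseudogene. The members' median was 0.067 on the log2 scale, with a lowest value of -0.018 and a highest of 0.15, beside a median of -0.0027 over all genes. In 55 members (69.6%) both EM-plasma libraries lay above both controls, against 24.3% of all genes, and in 0 members both lay below, against 24.8%.

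The intervals give a range for the change of each gene, given the scatter among these libraries alone. For 76 of 79 members the 95% interval of the log2 fold change lay inside a 1.2-fold change in either direction. The other 3 were Rpl24, Rpl6l and Rpl32l. Over all genes tested this held for 7219 of 13664. The median standard error was 0.045 over members and 0.070 over all genes tested.

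**Figure D3:**
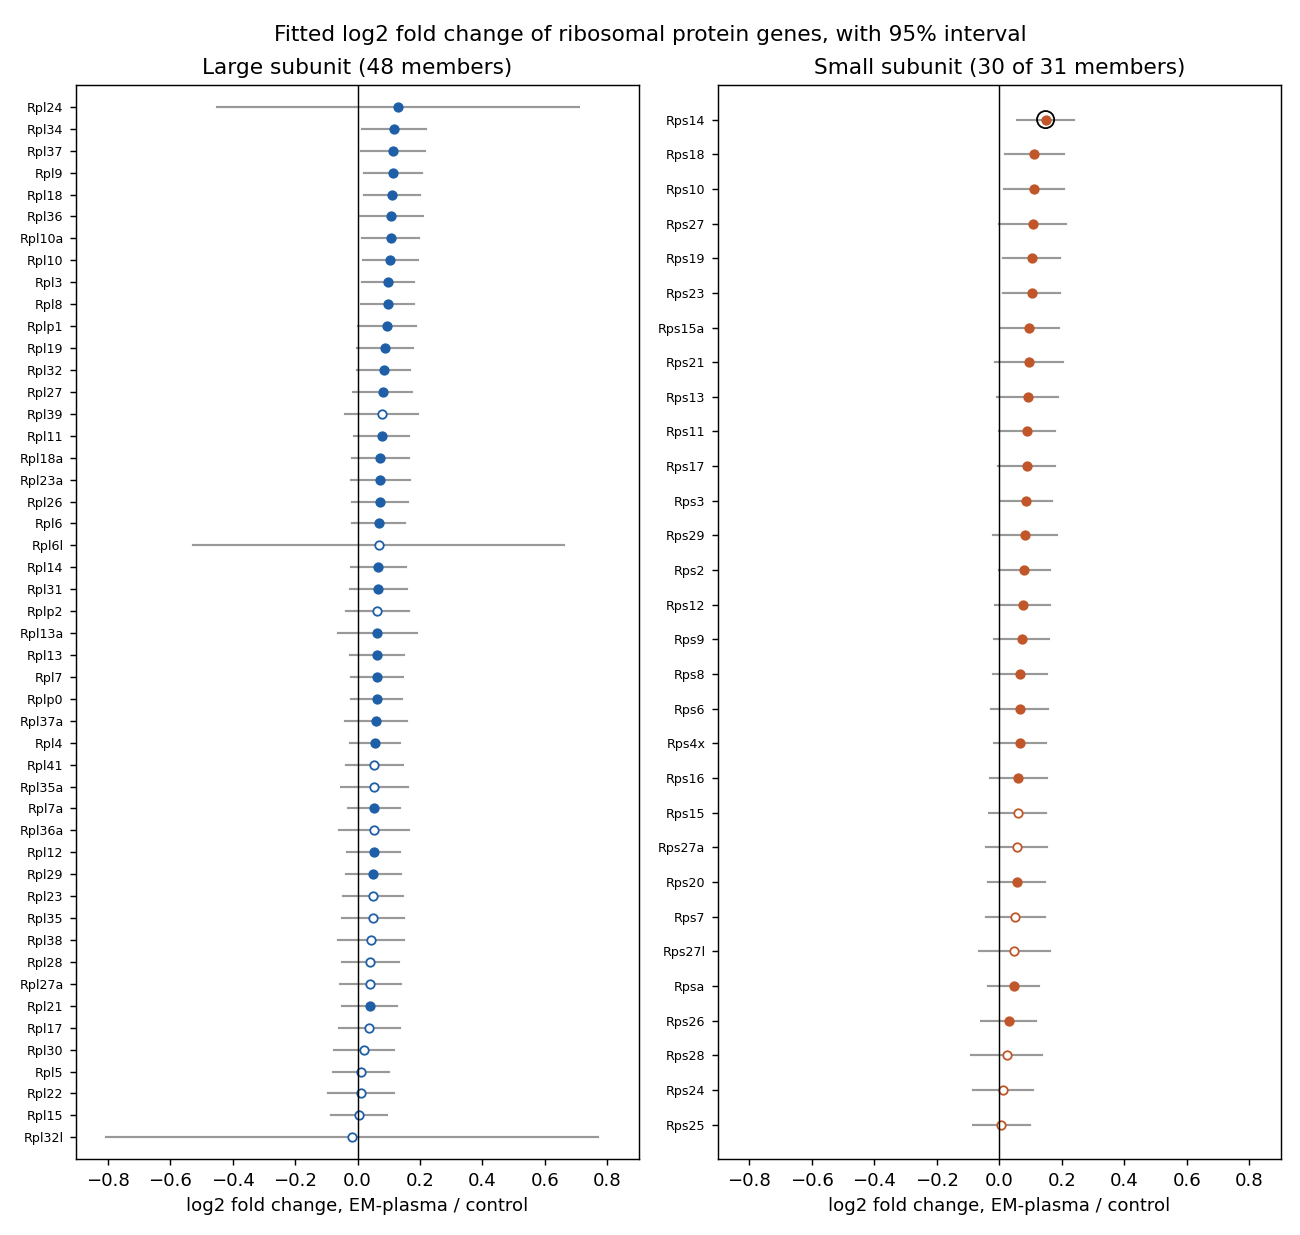
Fitted log2 fold change (EM-plasma over control) of each large subunit (left) and small subunit (right) member with its 95% interval. Filled points mark members whose treated libraries both lie above both controls, the black ring marks Rps14, the 1 called member, and all points except Rpl32l lie above 0. The right panel leaves out 1 member.

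The 2 treated libraries contributed unequally. EM-plasma 2 held the highest value of 73 members, control 1 of 3, EM-plasma 1 of 3 and control 2 of 0. The lowest value came from control 2 in 44 members and from control 1 in 35. EM-plasma 2 lay above EM-plasma 1 in 74 of 79 members, against 52.1% of all genes tested, with a median log2 ratio of 0.059. Control 2 lay above control 1 in 35 members, with a median log2 ratio of -0.011. Without EM-plasma 2 the members' median log2 fold change was 0.041, with 70 of 79 above 0, and without EM-plasma 1 it was 0.095, with 78 above 0. Without control 1 it was 0.075, with 67 above 0, and without control 2 it was 0.074, with 76 above 0. The direction of the median was thus the same with either treated library, and the size of the median depended on which of them was used.

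**Figure D4:**
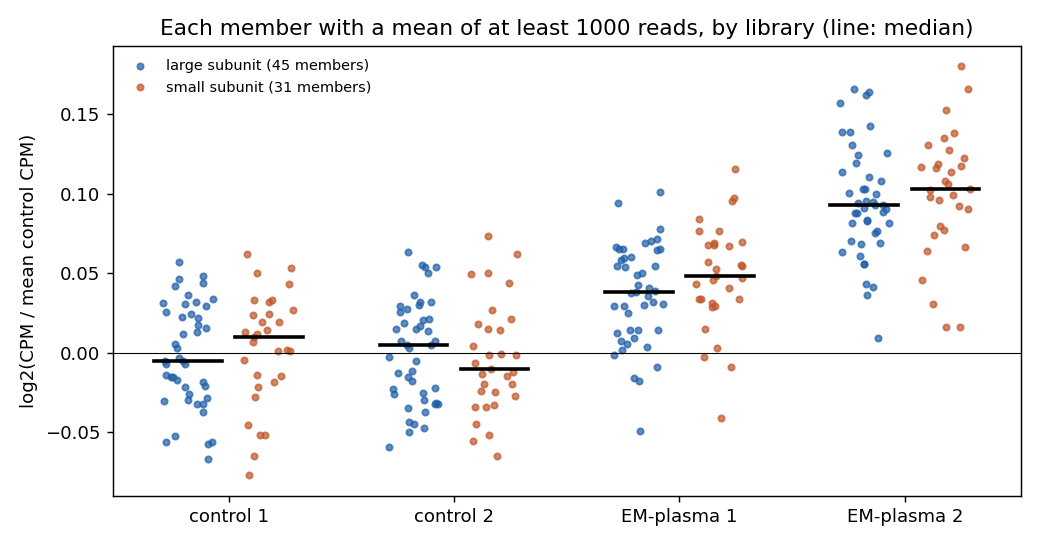
Log2 ratio of each member's CPM to its mean over the 2 controls, in each library, for the 76 members with a mean of at least 1000 reads (points; blue large, orange small subunit; black line, median). The medians of EM-plasma 1 are 0.038 and 0.048 and those of EM-plasma 2 are 0.093 and 0.10 for the large and small subunit, and every point of EM-plasma 2 lies above 0.

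In the small subunit 1 of 31 members was called (3.23%), 9 had an unadjusted p below 0.05, all higher, and 24 (77.4%) had treated libraries above both controls. Over all genes tested these shares were 3.34%, 9.7% and 24.3%, so the called share was at the background. The called gene was Rps14, a protein of the platform near the mRNA exit site whose loss of 1 copy is known from a human marrow disorder with anaemia. Rps14 (chromosome 18, 60747098 to 60778546, ENSMUSG00000024608) was at 282 and 275 CPM in controls and 302 and 316 CPM with EM-plasma. Both treated values lay above both controls. It rose from 279 ± 5.34 to 309 ± 9.8 CPM (SD, n = 2), a fold change of 1.11 (log2 0.15, 95% interval 0.057 to 0.24, adjusted p = 0.0425 by edgeR's quasi-likelihood test). Leaving out any 1 of the 4 libraries leaves a group with 1 library, so only the size of the change is read there. The log2 fold change of Rps14 then stayed between 0.11 and 0.18. With no low-count filter Rps14 was not called (edgeR adjusted p = 0.291, log2 0.15), and 0.0568% of all genes were then called higher.

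Rps26 and Rps28, which also lie near the mRNA exit site, had log2 fold changes of 0.03 and 0.024 and did not pass. At the low end Rps25, a head protein needed by some viral internal ribosome entry sites, was at 261 and 266 CPM in controls and 263 and 266 CPM with EM-plasma (interval -0.083 to 0.097). Rps24, which assists maturation of the small subunit's RNA, was at 367 and 401 CPM in controls and 373 and 402 CPM with EM-plasma (interval -0.085 to 0.11). For both genes the groups overlapped, with control 2 above EM-plasma 1.

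By position, the 14 head members had a median log2 fold change of 0.079 with 10 not overlapping, and the 17 members of the body 0.071 with 14 not overlapping. Those are 71.4% and 82.4%, all higher, against 24.3% of all genes. Rps12, the most abundant per length, was at 374 and 373 CPM in controls and 383 and 404 CPM with EM-plasma (log2 0.074, edgeR adjusted p = 0.361). Rpsa, which is also known as the laminin receptor precursor, was at 1007 and 947 CPM in controls and 1009.5 and 1009 CPM with EM-plasma, with the treated libraries nearly equal to control 1. Rps6, the kinase target used to follow growth signalling, was at 295 and 306 CPM in controls and 306 and 323 CPM with EM-plasma (log2 0.066, edgeR adjusted p = 0.448), treated above controls. Rps3, a head protein at the mRNA entry that also acts in DNA repair, was at 572 and 553 CPM in controls and 589 and 604 CPM with EM-plasma (log2 0.086, edgeR adjusted p = 0.239), again with no overlap.

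In the large subunit 0 of 48 members were called, 10 had an unadjusted p below 0.05, all higher, and 31 (64.6%) had treated libraries above both controls. The shares over all genes were 3.34%, 9.7% and 24.3%. DESeq2 also called 0, against 2.03% of all genes higher and 2.05% lower. The subunit medians were 0.063 for the large and 0.074 for the small, a difference of -0.011 that was not tested because members are not replicates. Leaving out 1 library in turn gave differences between -0.022 and -0.0057.

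The stalk, which recruits and activates the translation factors that hydrolyse GTP, is built from Rplp0, Rplp1 and Rplp2 on a base shared with Rpl12. Rplp0 was at 1008 and 950.0 CPM in controls and 1016 and 1027 CPM with EM-plasma and Rplp1 at 429 and 396 CPM in controls and 430.2 and 452 CPM with EM-plasma. For Rplp1 control 1 and EM-plasma 1 were within 1 CPM of each other, and the fold change rested on control 2 and EM-plasma 2 (log2 0.096, edgeR adjusted p = 0.236). Rplp2 was at 213 and 199 CPM in controls and 208 and 223 CPM with EM-plasma, with overlapping groups, and Rpl12 at 484 and 482 CPM in controls and 488 and 514 CPM with EM-plasma. Of these 4 members 0 passed, against 3.34% of all genes called higher and 2.88% lower, with log2 fold changes from 0.051 to 0.096. In 3 of them (75%) both treated libraries lay above both controls, against 24.3% of all genes.

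Rpl5 and Rpl11 join the smallest ribosomal RNA in a particle that is built into the large subunit. Rpl11 was at 294 and 305 CPM in controls and 314 and 319 CPM with EM-plasma (log2 0.077, edgeR adjusted p = 0.349), with no overlap. Rpl5 was at 357 and 373 CPM in controls and 361 and 376 CPM with EM-plasma (log2 0.012, interval -0.077 to 0.10), with values that interleaved. Rpl11 thus stood above and Rpl5 below the large subunit's median of 0.063, and neither passed.

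The 8 members that line the exit tunnel or its opening, Rpl4, Rpl17, Rpl19, Rpl23a, Rpl26, Rpl31, Rpl35 and Rpl39, had a median log2 fold change of 0.069 and a range from 0.038 to 0.087, and 5 of them (62.5%) did not overlap, all higher, against 24.3% of all genes. Rpl4, which reaches into the tunnel and had the most reads of all members, was at 988 and 1009 CPM in controls and 1019 and 1057 CPM with EM-plasma (log2 0.056, edgeR adjusted p = 0.461). Rpl19, at the tunnel's opening, was at 313 and 310.1 CPM in controls and 323 and 338 CPM with EM-plasma (log2 0.087, edgeR adjusted p = 0.268).

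Among large subunit members with a mean of at least 100 reads, Rpl34 and Rpl37 had the largest fold changes. Rpl34 was at 129 and 126 CPM in controls and 134 and 142 CPM with EM-plasma (log2 0.12, edgeR adjusted p = 0.174) and Rpl37 at 139 and 134 CPM in controls and 143 and 153 CPM with EM-plasma (log2 0.11, edgeR adjusted p = 0.195). In each, both treated libraries lay above the controls. The smallest were in Rpl15 and Rpl22, whose paralog Rpl22l1 it is known to repress. Rpl15 was at 259 and 260.4 CPM in controls and 259.8 and 261 CPM with EM-plasma (interval -0.084 to 0.095), and Rpl22 at 161 and 173 CPM in controls and 161 and 175 CPM with EM-plasma (interval -0.094 to 0.12). Rpl32, the most abundant per length, was at 471 and 463 CPM in controls and 487 and 503 CPM with EM-plasma (log2 0.084, edgeR adjusted p = 0.261).

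Paralogs were compared where both rows matched the symbol rule. Rps27l, a copy of Rps27 known as a p53 target, was at 103 and 115 CPM in controls and 110.2 and 115 CPM with EM-plasma (log2 0.048, edgeR adjusted p = 0.69). Rps27 itself was at 93.8 and 92.5 CPM in controls and 99.5 and 101 CPM with EM-plasma (log2 0.11, edgeR adjusted p = 0.253). Per transcript length Rps27l was at 222 and Rps27 at 280.4 CPM per kb. The groups of Rps27 did not overlap and those of Rps27l did, but the difference between the paralogs was not tested. For the other pairs the widely expressed member carried the reads: Rpl3 was at 637 and 653 CPM in controls and 669.8 and 710.3 CPM with EM-plasma, Rpl10 at 456 and 479 CPM in controls and 491 and 515 CPM with EM-plasma, Rps4x at 581 and 585 CPM in controls and 600.0 and 621 CPM with EM-plasma and Rpl39 at 81.7 and 84.2 CPM in controls and 83.5 and 91.6 CPM with EM-plasma. None of these passed, with log2 fold changes of 0.097, 0.10, 0.066 and 0.077 and edgeR adjusted p = 0.175, 0.16, 0.395 and 0.492.

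Base composition accompanied the spread between the controls. Across the 76 members with a mean of at least 1000 reads, which share the same 4 libraries, the log2 ratio of control 2 to control 1 was lower at higher transcript GC content (Pearson's r = -0.60, Spearman's rho = -0.62, across genes). For EM-plasma 2 over EM-plasma 1, the pair further apart, the relation was weaker (r = -0.20, rho = -0.20). The log2 fold change of treatment was slightly higher at higher GC (r = 0.31, rho = 0.27). Over the 13647 tested genes with a known GC content the same relation had r = 0.085 and rho = 0.23. Rps27l, with 44.9% GC, stood at 103 and 115 CPM in control 1 and 2. Single members departed from the relation: at 52.9% GC Rplp0 stood at 1008 and 950.0 CPM, but Rpl11 at 294 and 305 CPM. After a GC trend was removed from each library, 15 members were called higher (7 large, 8 small) and 0 lower. Of all genes 6.09% were then called higher and 6.35% lower. The members' median was 0.061 with 76 of 79 above 0. The part of GC content in the result beyond that fit was not tested.

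**Figure D5:**
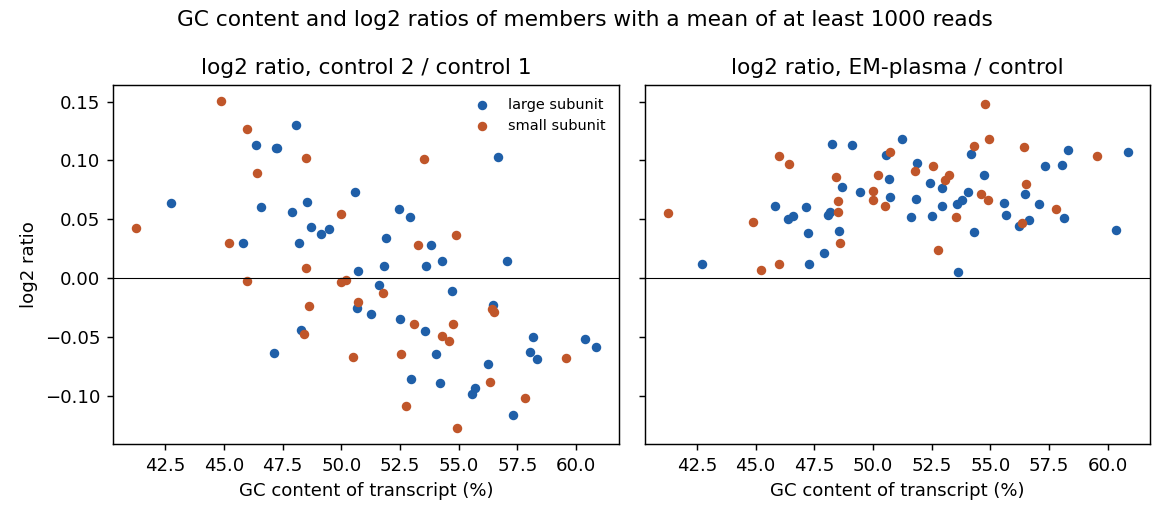
GC content of the transcript against the log2 ratio of control 2 to control 1 (left) and against the fitted log2 fold change of EM-plasma over control (right), for the 76 members with a mean of at least 1000 reads (blue large, orange small subunit). The left cloud slopes down across 0 (Pearson's r = -0.60), whereas the right cloud lies above 0 over the whole range of GC (r = 0.31).

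Rows of ribosomal protein pseudogenes, with -ps in the symbol, were counted apart from the members. Of 295 such rows 196 had reads, together 8730 and 8036 in controls and 8638 and 6070 with EM-plasma. EM-plasma 2, the library with the highest members, thus had the fewest pseudogene reads, at 0.494% of its member reads against 0.688% to 0.728% in the other 3. Of the 85 pseudogene rows tested edgeR called 0, against 3.34% of all genes higher and 2.88% lower. In 5 rows (5.88%) the unadjusted p was below 0.05, all lower, against 9.84% of all genes lower. Treated libraries lay above both controls in 7 rows (8.24%, against 24.3%) and below both in 10 (11.8%, against 24.8%), and the median log2 fold change was -0.11. How multiply matching reads were divided between members and copies is not given, and its part in the members' shift was not tested.

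Ribosomal proteins whose symbols fall outside the rule gave 0 called genes among 7 tested of 8, against 3.34% of all genes higher and 2.88% lower. At an unadjusted p below 0.05 there was 1, higher (14.3%, against 9.7% of all genes). Rack1, the scaffold protein on the small subunit's head, was at 762 and 724 CPM in controls and 784 and 811 CPM with EM-plasma (log2 0.10, edgeR adjusted p = 0.141), with no overlap. Rps3a1, a small subunit core protein, and Fau, the precursor of the small subunit protein eS30, had log2 fold changes of 0.054 and 0.053. Rpl22l1 and Rpl7l1, the copies of Rpl22 and Rpl7, were at -0.052 and -0.034 on the log2 scale. Treated libraries lay above both controls in 1 of the 7, Rack1 (14.3%, against 24.3% of all genes). They lay below both controls in 1, Rpl7l1 (14.3%, against 24.8%). The list's median was 0.052.

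Another list held 17 other genes known for terminal oligopyrimidine mRNAs, which encode elongation factors, initiation factor subunits and related proteins. Of these 0 were called, against 3.34% of all genes higher and 2.88% lower. At an unadjusted p below 0.05, 1 of them was higher (5.88%, against 9.7% of all genes) and 0 were lower (against 9.84%). Their median log2 fold change was 0.014, 10 (58.8%) were above 0, against 49.1% of all genes, and 4 (23.5%) had treated libraries above both controls, against 24.3%. Eef1a1, the factor that delivers aminoacyl-tRNA, was at 2816 and 2818 CPM in controls and 2844 and 2886 CPM with EM-plasma (log2 0.024, edgeR adjusted p = 0.762). Eef2, the translocation factor, had the largest value of the list at 0.084, and Eif3e, an initiation factor subunit, the smallest at -0.066. The members' median of 0.067 stood above that of this list, and the difference was not tested.

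Of 9 genes for dedicated chaperones and assembly partners of single ribosomal proteins 0 were called, against 3.34% of all genes higher and 2.88% lower. At an unadjusted p below 0.05 there were 0, against 9.7% of all genes higher and 9.84% lower. DESeq2 also called 0 in this list, in the 17 translation genes and in the 7 ribosomal proteins outside the rule. It called 0 as well in the 54 pseudogene rows for which it gave an adjusted p. Of all genes it called 2.03% higher and 2.05% lower. The chaperones' median log2 fold change was 0.053, all 9 were above 0, against 49.1% of all genes, and 4 (44.4%) had treated libraries above both controls, against 24.3%. Rrs1, which helps build the particle of Rpl5 and Rpl11, was the most abundant at 124 and 125 CPM in controls and 126 and 128 CPM with EM-plasma (log2 0.034, edgeR adjusted p = 0.77). Bccip, a chaperone of the large subunit protein Rpl23, was at 60.6 and 64.9 CPM in controls and 68 and 65.2 CPM with EM-plasma (log2 0.086, edgeR adjusted p = 0.458).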

How the data were processed

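Poly(A) RNA of B16 cells was sequenced from stranded libraries, per the labels' protocols. The deposited count table holds whole-number read counts per gene, and the submitters' processing notes name GRCm38, CASAVA, TopHat2 2.1.1, HTSeq and edgeR without their roles. Not given in the sources used here were the annotation release, the strand setting and the treatment of multiply matching reads. The deposited per-sample signal values equal the counts times 1 constant per library and were used only for that check. Symbols were given for 53360 of 53465 rows by the supplied name table, and lengths and GC content by the supplied GRCm38 gene annotation, using the shortest principal transcript of a gene (otherwise the longest).

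Genes kept by filterByExpr (13664) were tested with edgeR 4.0.16 in R 4.3.3 (TMM scaling, quasi-likelihood F test, group only, two-sided, Benjamini-Hochberg over all of them), with 2 control and 2 EM-plasma libraries. DESeq2 1.42.0 was an alternative. The other alternatives were other scalings, filters and dispersions, length and GC trends, a block and leaving out each library. Only the main edgeR fit was tested on simulated data. It called 27 of 66 genes changed 1.2-fold (40.9%) and 3 of 13314 unchanged genes. Smaller changes were not simulated. CPM is a gene's count over its library's total after adjustment by the TMM factor (0.995 to 1.01). Depth was close to equal between libraries, and the biological coefficient of variation was 4.0%.

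Named members were those called, the stalk and the Rpl5 and Rpl11 pair, the highest per length, the 2 largest and 2 smallest fold changes of each subunit with a mean of at least 100 reads, and paralogs. In each list of other genes the most abundant was named. Rpl4, Rpl13a, Rpl19, Rpl24, Rpl6l, Rpl32l, Rpsa, Rps3, Rps6, Rps20, Rps26, Rps28, Bccip, Eef2, Eif3e, Fau, Rps3a1, Rpl22l1 and Rpl7l1 were named after their values were seen. The members and all gene lists were chosen with earlier results of these data known. The individual values of 1 small subunit member, which is included in all counts, sums and medians, are not reported here.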

Additional observations from a re-analysis of the deposited data

How the results depend on the processing

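The median log2 fold change of all members was above 0 under every alternative run, from 0.041 to 0.095. With no low-count filter the members' median was 0.064, beside 0.021 over all genes. In the alternatives that kept all 4 libraries 0 members were called lower. The share of all genes called lower ran there from 0.00437% (no low-count filter) to 6.35% (GC trend removed). The number called higher was less stable. The replicate block gave 6 called higher (3 large, 3 small; 6.09% of all genes were then called higher). Removing a GC trend gave 15 (7 large, 8 small; 6.09% of all genes), and no low-count filter gave 0 (0 small; 0.0568% of all genes). Leaving out 1 library in turn gave a small subunit median between 0.047 (without EM-plasma 2) and 0.10 (without EM-plasma 1). The lone library of a group was then assumed to vary like the other group. Libraries with the same number are not stated to share a batch, and their deviations correlated at 0.039, so the block is not read as a pairing. With 2 libraries a group the crossed value, -0.039, is the same value with its sign reversed and adds nothing. The cause of these changes in count was not tested. Depth limits only Rpl24, Rpl6l and Rpl32l, each under 100 reads per library on average.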
